A study of Rattus norvegicus with 14 samples.

Results

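The genes described here encode the proteasome and its direct regulators. They are all genes of the array whose probe sets carry a single symbol starting with Psma, Psmb, Psmc, Psmd, Psme or Psmf in the platform annotation. This rule found 39 genes on 42 probe sets, of 10411 genes with a single symbol in all. Of the 39 genes, 36 had a probe set with a mean log2 value of at least 4 and were tested. The other 3, Psmb8, Psmb9 and Psmc3ip, were below that level in this tissue. Psmc3ip and Psme3ip1 share the prefix but are no proteasome subunits, since Psmc3ip acts in meiotic recombination and Psme3ip1 binds the activator encoded by Psme3.

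RNA came from the microdissected dentate gyrus of 14 male Long-Evans rats aged 3 to 4 months, and each rat gave 1 Affymetrix RAE230A array. All 14 rats, of both groups, had first been trained in a standard water maze, and 2 to 3 weeks later swam a session of 8 trials in an unfamiliar maze. The 7 learning rats found a visible platform in a constant place among spatial cues, and the 7 control rats swam to a visible platform that changed place, without informative cues. All 14 had a probe trial of 90 s 1 h after the session, and tissue was taken at once. The control group therefore shares the swimming, the handling and the earlier maze training. The comparison asks which transcripts differ shortly after new spatial information could be encoded.

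The proteasome is the large protease that degrades proteins tagged with ubiquitin. Its 20S core particle is a barrel of outer alpha rings and inner beta rings that hold the proteolytic sites. The 19S regulatory particle caps the barrel: a ring of ATPases in its base unfolds substrates, and its lid and base subunits bind and remove ubiquitin. Other caps and an inhibitor can bind the core in place of the 19S particle. In neurons, protein degradation by this pathway is known to take part in synaptic change and in memory.

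None of the proteasome genes passed the adjusted threshold of limma, set over all probe sets. Limma called 0 of 9387 probe sets at an adjusted p below 0.05 (percent called 0) and 1230 at an unadjusted p below 0.05. The lowest adjusted p among the proteasome genes was 0.153, for Psmb2. At an unadjusted p below 0.05 there were 6 of 36 genes (16.7%), against 12.6% of all 6697 genes tested, so the share was near the background. Psme4, Psmd4, Psma6 and Psma5 were the 4 higher in learning rats, against a background of 5.99%, and Psmb2 and Psmd3 the 2 lower, against 6.66%. Of the 36 genes, 24 had a difference above 0 (66.7%), against 50.6% of all genes tested. Their median difference was 0.05 log2 units, and that of all genes 0.0018. The groups overlapped for every proteasome gene, while 0.433% of all genes had groups that did not overlap. Counted over all 9387 probe sets instead, the shares were 13.1% at an unadjusted p below 0.05, with 6.43% higher and 6.67% lower, 51.7% of differences above 0 and 0.405% without overlap.

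**Figure D1:**
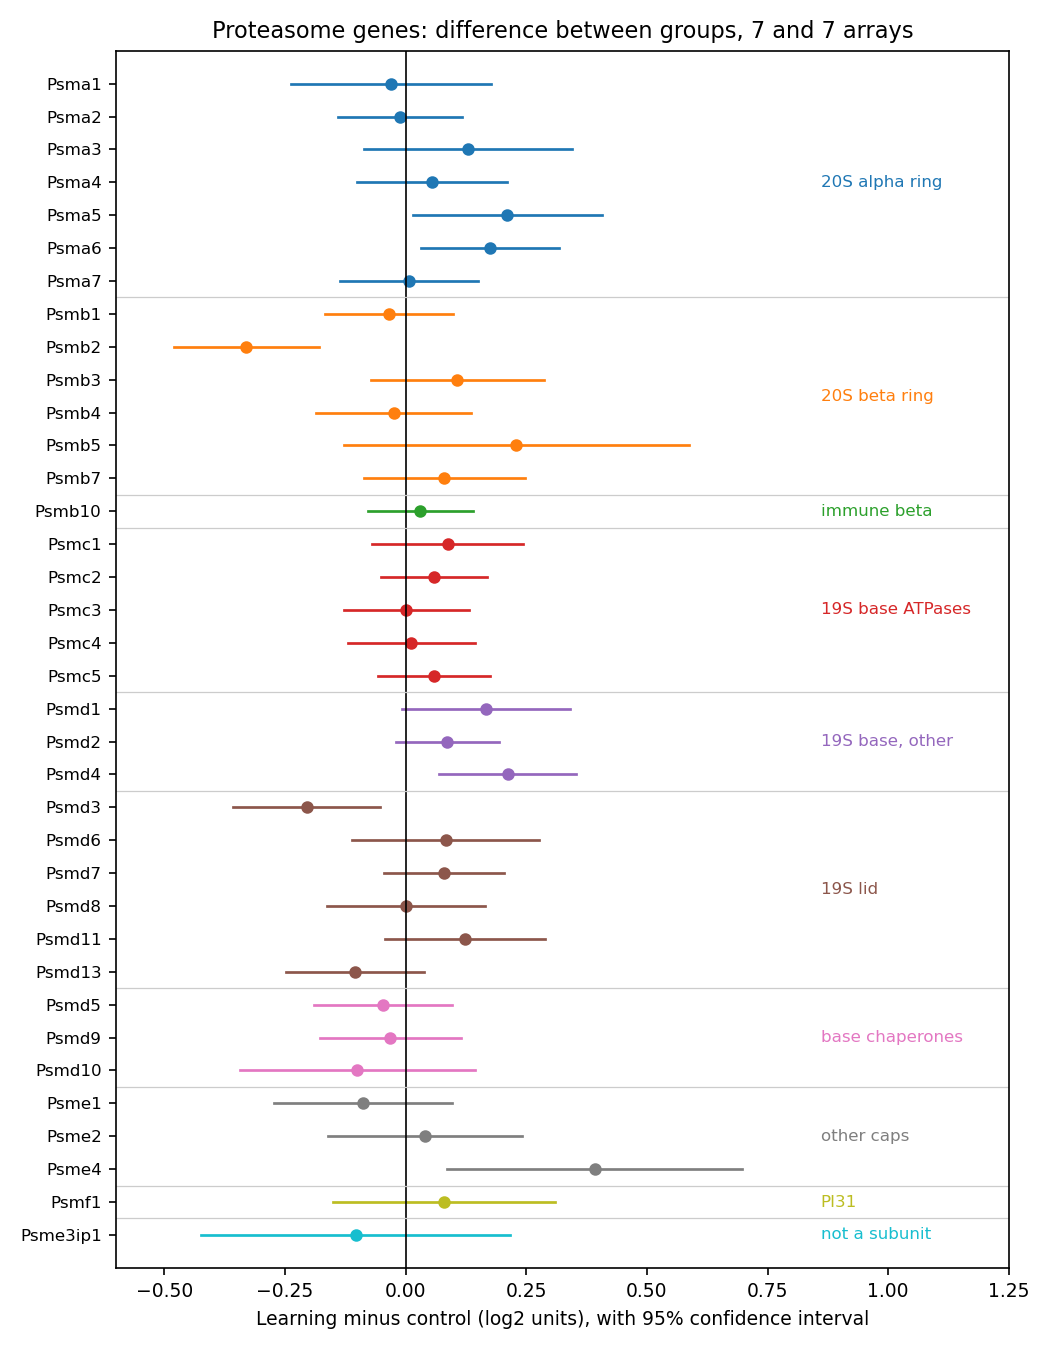
Difference between learning and control rats for the 36 tested proteasome genes, on the x axis in log2 units, with each gene's 95% confidence interval as a line and genes grouped by their place in the complex. Psmb2 lies farthest to the left at -0.33 and Psme4 farthest to the right at 0.39, and most of the other intervals include 0.

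Psmb2 encodes a beta ring subunit that carries no proteolytic site of its own. Its log2 level was lowest at 9.09, had a median of 9.26 and was highest at 9.46 in control rats. In learning rats the lowest was 8.73, the median 8.87 and the highest 9.13. All learning rats but replicate 3 lay below every control rat. The mean was 9.24 ± 0.12 among control and 8.91 ± 0.14 among learning rats (SD, n = 7 each), so the level was 1.26-fold lower in learning rats. The difference of -0.33 ± 0.07 log2 units (SE) had a 95% confidence interval from -0.48 to -0.18, an unadjusted p of 0.000279 (adjusted p = 0.153 in limma). It exceeded the spread between rats but not the threshold set over all probe sets.

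Psme4 encodes PA200, a single-chain cap that activates the core particle without ATP or ubiquitin. It was measured by 3 probe sets, and all 3 were higher in learning rats. On the brightest, control values ran from 5.29 through a median of 5.93 to 6.09, and learning values from 5.94 through 6.03 to 6.37. Control replicates 1, 2, 3 and 5 lay below every learning rat, and learning replicates 1, 4 and 6 above every control rat. The means were 5.75 ± 0.37 among control and 6.14 ± 0.19 among learning rats (SD, n = 7 each), a difference of 0.39 ± 0.14 (SE), or 1.31-fold (unadjusted p = 0.0153, adjusted p = 0.280 in limma). On the second probe set the difference was 0.46 ± 0.14 (SE; adjusted p = 0.233 in limma). The dimmest was near the filter level, with means of 4.44 for control and 4.67 for learning rats and a difference of 0.23 ± 0.11 (SE; adjusted p = 0.375 in limma). These probe sets read the same 14 RNA samples and are not independent of each other. Low Psme4 values in control rats came partly from different rats on the 2 brighter probe sets: replicate 1 was at 5.29 on the first and 5.82 on the second, and replicate 3 at 5.93 and 5.45.

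Psmd4 encodes Rpn10, a base subunit that binds ubiquitin chains. Control values ran from 9.38 through a median of 9.55 to 9.62, and learning values from 9.44 through 9.76 to 9.90. All learning rats but replicate 1 lay above every control rat. The difference was 0.21 ± 0.07 log2 units (SE), or 1.16-fold, with a confidence interval from 0.07 to 0.35 and an adjusted p of 0.236 in limma.

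Psmd3 encodes Rpn3, a subunit of the lid. Its control values were close together, from 8.32 through a median of 8.35 to 8.44 (SD 0.04). Learning values ran from 7.90 through 8.19 to 8.34 (SD 0.18). All learning rats but replicate 7 lay below every control rat, and replicates 1 and 2, at 7.91 and 7.90, lay lowest. The difference was -0.21 ± 0.07 (SE), with a confidence interval from -0.36 to -0.05 and an adjusted p of 0.258 in limma.

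**Figure D2:**
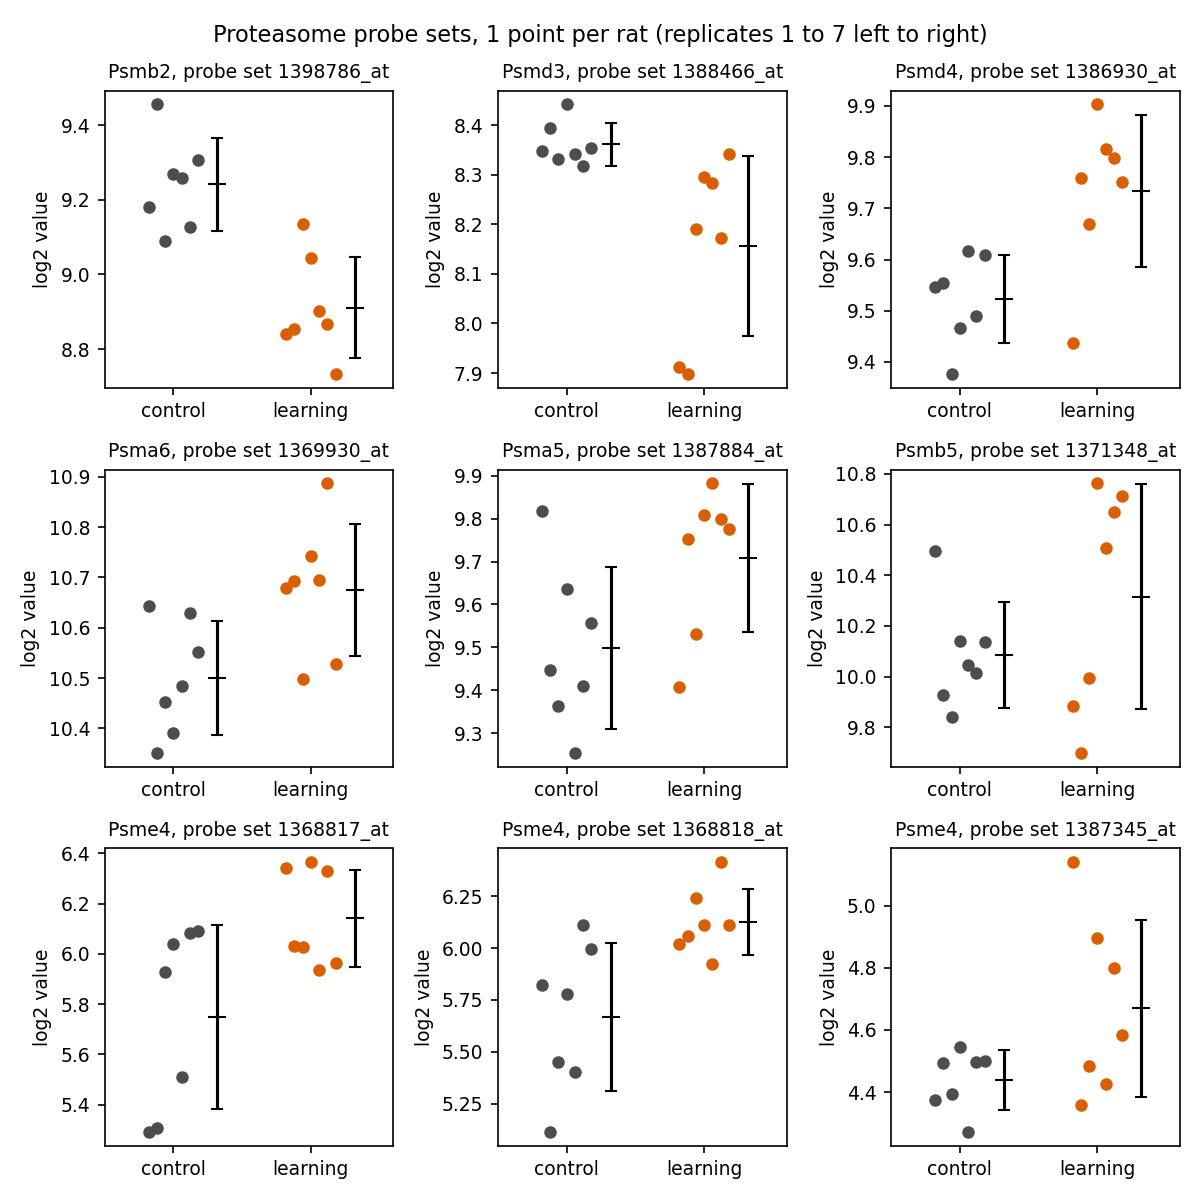
Log2 values of 9 proteasome probe sets, 1 point per rat, with the mean and SD of each group of 7 beside the points; the y axes do not start at 0 and differ between panels. Psmb2 and Psmd3 lie lower, and Psmd4 and the 3 Psme4 probe sets higher, in most learning rats, and every panel shows some overlap between the groups.

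The stretches upstream of these 4 genes are shown because these genes had the lowest p values, with differences of opposite sign. Genes of the proteasome are known to share control by the factor encoded by Nfe2l1, which binds antioxidant response elements. RefSeq promoters of assembly GRCr8 were found for 37 of the 39 genes, with none found for Psma7 and Psmd6. Each line gives the 250 bases before the start site, 5′ to 3′ on the gene's strand. Capitals mark matches on either strand to TGACNNNGC or TGAGNNNGC, forms of the core of the antioxidant response element, or to CCAAT.
Psmb2 (chr5:144254808-144255057, + strand): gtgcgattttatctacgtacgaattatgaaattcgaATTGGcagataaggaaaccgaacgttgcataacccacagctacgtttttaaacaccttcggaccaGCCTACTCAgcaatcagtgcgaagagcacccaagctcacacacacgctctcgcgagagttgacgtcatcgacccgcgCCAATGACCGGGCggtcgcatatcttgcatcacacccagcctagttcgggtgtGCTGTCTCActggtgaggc
Psmd3 (chr10:84139688-84139937, + strand): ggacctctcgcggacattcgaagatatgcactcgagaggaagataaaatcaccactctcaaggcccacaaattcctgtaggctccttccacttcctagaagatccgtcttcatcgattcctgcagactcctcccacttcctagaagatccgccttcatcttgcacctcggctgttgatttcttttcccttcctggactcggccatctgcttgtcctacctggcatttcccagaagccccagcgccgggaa
Psme4 (chr14:108706393-108706642, + strand): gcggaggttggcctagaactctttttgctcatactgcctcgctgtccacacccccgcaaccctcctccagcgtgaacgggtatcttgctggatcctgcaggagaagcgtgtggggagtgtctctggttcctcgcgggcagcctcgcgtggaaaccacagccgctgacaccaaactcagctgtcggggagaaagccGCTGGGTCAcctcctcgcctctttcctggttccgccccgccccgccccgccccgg
Psmd4 (chr2:185297202-185297451, - strand): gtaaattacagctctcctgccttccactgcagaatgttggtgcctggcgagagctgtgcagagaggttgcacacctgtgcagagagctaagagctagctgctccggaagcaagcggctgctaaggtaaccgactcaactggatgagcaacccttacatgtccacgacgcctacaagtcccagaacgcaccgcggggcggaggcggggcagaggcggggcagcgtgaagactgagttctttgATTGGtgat

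In the Psmb2 stretch, CCAAT and TGACNNNGC overlap by 1 base, and CCAAT on the other strand, read as ATTGG, and both matches to TGAGNNNGC, read as GCCTACTCA and GCTGTCTCA, lie elsewhere in it. Psme4 has a match to TGACNNNGC on the opposite strand, read as GCTGGGTCA, from 55 to 47 bases before the start. Psmd4 has CCAAT on the opposite strand close to its start, and Psmd3 has no match to these letters in this window. TGACNNNGC was present in 16.2% of the 37 promoters and in 10.1% of all 33469 promoters of the table, over the same 250 bases. TGAGNNNGC was present in 21.6% against 14.2%, and CCAAT in 54.1% against 34.0%. The GC-rich GGCGG was present in 83.8% against 42.8%, and the median GC content was 55.6% in these promoters and 51.2% in all. The sets are unlike, since the 33469 promoters belong to 27457 genes, not limited to genes tested here, while each member has 1 promoter. These are matches of letters only.

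The alpha ring forms the gated entrance of the core, and all of its 7 genes present were tested. In learning rats 5 of them were higher and 2 lower. Their median difference was 0.06. Psma6 ran from 10.35 through a median of 10.48 to 10.64 in control rats and from 10.50 through 10.69 to 10.89 in learning rats. Of the learning rats, 5 lay above every control rat. Its difference was 0.17 ± 0.07 (SE; unadjusted p = 0.0203, adjusted p = 0.303 in limma). Psma5 ran from 9.25 through 9.45 to 9.82 in control rats and from 9.41 through 9.78 to 9.88 in learning rats, with control replicate 1 the highest control. Its difference was 0.21 ± 0.09 (SE; unadjusted p = 0.0373, adjusted p = 0.350 in limma), and its unadjusted p was above 0.05 when any of 9 of the 14 arrays was left out. The other alpha ring genes differed by 0.13 (Psma3), 0.06 (Psma4), 0.0062 (Psma7), -0.01 (Psma2) and -0.03 (Psma1). A second Psma3 probe set, shared in the annotation with Psma3l, differed by -0.04.

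The beta ring was represented by 6 genes, of which 3 were higher and 3 lower, with a median difference of 0.03. Psmb5 encodes the subunit with chymotrypsin-like activity, the main target of proteasome inhibitors. Its control values ran from 9.84 through a median of 10.04 to 10.50. Learning values were spread more widely, from 9.70 through 10.51 to 10.76 (SD 0.44, against 0.21 in control rats). Learning replicates 4, 5, 6 and 7 lay above every control rat, between 10.51 and 10.76, and replicates 1, 2 and 3 lay between 9.70 and 9.99. The mean difference of 0.23 ± 0.17 (SE) was within this spread (adjusted p = 0.566 in limma), with a confidence interval from -0.13 to 0.59. Psmb7, the subunit with trypsin-like activity, was at 10.6 ± 0.17 among control and 10.6 ± 0.12 among learning rats (SD, n = 7 each), with a difference of 0.08 and a confidence interval from -0.09 to 0.25. Leaving out learning replicate 7 gave 0.04, and leaving out control replicate 7 gave 0.13. Psmb6, the third proteolytic subunit, shared its probe set with Psmb6l1 and so falls outside the rule. That probe set differed by 0.10 ± 0.11 (SE). The structural subunits differed by 0.11 (Psmb3), -0.02 (Psmb4) and -0.03 (Psmb1).

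In immune cells and after interferon signals, the products of Psmb8, Psmb9 and Psmb10 take the place of the proteolytic subunits. Psmb8 was at 1.94 ± 0.01 among control and 1.96 ± 0.04 among learning rats (SD, n = 7 each), far under the filter level. Psmb9 was at 3.26 ± 0.10 among control and 3.22 ± 0.02 among learning rats (SD, n = 7 each). Neither was tested, and no difference is read at this level. Psmb10 passed the filter, at 5.09 ± 0.10 among control and 5.12 ± 0.06 among learning rats (SD, n = 7 each), with a difference of 0.03 and a confidence interval from -0.08 to 0.14. Leaving out 1 array at a time gave 0.01 to 0.05. Microglial markers, summed as the mean of 9 tested genes, were at 7.18 ± 0.18 among control and 7.06 ± 0.06 among learning rats (SD, n = 7 each).

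The ATPase ring of the 19S base showed small differences of the same sign. All 5 measured genes, Psmc1 to Psmc5, had differences above 0, as did 50.6% of all genes tested, and they share the same arrays. The differences ran from 0.0016 for Psmc3 to 0.09 for Psmc1, with 0 of the 5 genes at an unadjusted p below 0.05. Psmc5 ran from 9.77 through a median of 9.88 to 9.94 in control rats and from 9.80 through 9.93 to 10.14 in learning rats, with a difference of 0.06 ± 0.05 (SE). Its confidence interval ran from -0.06 to 0.18, and the difference was 0.02 without learning replicate 5.

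The base subunits without ATPase activity are Psmd1 and Psmd2, the large scaffolds that receive ubiquitin receptors, and Psmd4. All 3 were higher in learning rats. Psmd1 ran from 7.77 through a median of 7.93 to 8.08 in control rats and from 7.89 through 8.04 to 8.42 in learning rats, and learning replicates 2, 5 and 6 lay above every control rat. Its difference was 0.17 ± 0.08 (SE; unadjusted p = 0.0590, adjusted p = 0.400 in limma). Psmd2 was close together in control rats, from 9.60 through 9.63 to 9.69, and ran from 9.59 through 9.70 to 9.90 in learning rats. Its difference was 0.09 ± 0.05 (SE; adjusted p = 0.480 in limma), and 0.06 without learning replicate 5.

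Of the 6 lid genes tested, 4 were higher and 2 lower, with a median difference of 0.04. Besides Psmd3, Psmd13 was lower, at 7.86 ± 0.12 among control and 7.76 ± 0.12 among learning rats (SD, n = 7 each), a difference of -0.10 ± 0.07 (SE; adjusted p = 0.518 in limma). That difference was -0.06 without learning replicate 1 and -0.05 with CA1 markers as a covariate. Psmd11, which helps to hold the lid on the base, had probe sets of opposite sign. The brighter differed by 0.12 ± 0.08 (SE) and the other by -0.05 ± 0.07 (SE), and neither reached an unadjusted p below 0.05. Psmd6, Psmd7 and Psmd8 differed by 0.08, 0.08 and 0.00054. Psmd14, the deubiquitinase of the lid, Psmd12 and the ATPase gene Psmc6 were not analysed here.

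Core and regulatory particle were then compared as wholes. Each was averaged over its 14 tested genes in every array. The core genes were those of the alpha and beta rings and the immune form Psmb10, without Psmb6, which falls outside the rule. Only the variation of these means between arrays is read, since levels of different probe sets are not comparable. The core mean was 9.35 ± 0.05 among control and 9.39 ± 0.08 among learning rats (SD, n = 7 each), a difference of 0.04. The regulatory mean was 9.33 ± 0.02 among control and 9.38 ± 0.08 among learning rats (SD, n = 7 each), a difference of 0.05. Of the core genes, 9 of 14 (64.3%) were higher in learning rats, and of the regulatory genes 12 of 14 (85.7%), against 50.6% of all genes. The difference between both shifts, core minus regulatory, was -0.0049 log2 units, with an SD between rats of 0.04 pooled within groups. The core and the regulatory particle thus did not separate by more than the spread between rats. No test was made on these means, because the genes were chosen with earlier results of these data known.

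The means within the learning group were spread widely. Regulatory means lay between 9.30 and 9.36 in all 7 control rats. Learning replicate 1 lay below all of them at 9.25, replicates 2 and 3 lay among them at 9.33 and 9.34, and replicates 4, 5, 6 and 7 lay above all of them, between 9.40 and 9.48. In the core mean, learning replicate 1 was again the lowest of all rats at 9.28 and replicate 6 the highest at 9.50, while the control range of 9.31 to 9.44 held learning replicates 2, 3, 5 and 7. Array medians over all probe sets lay between 5.09 and 5.12.

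**Figure D3:**
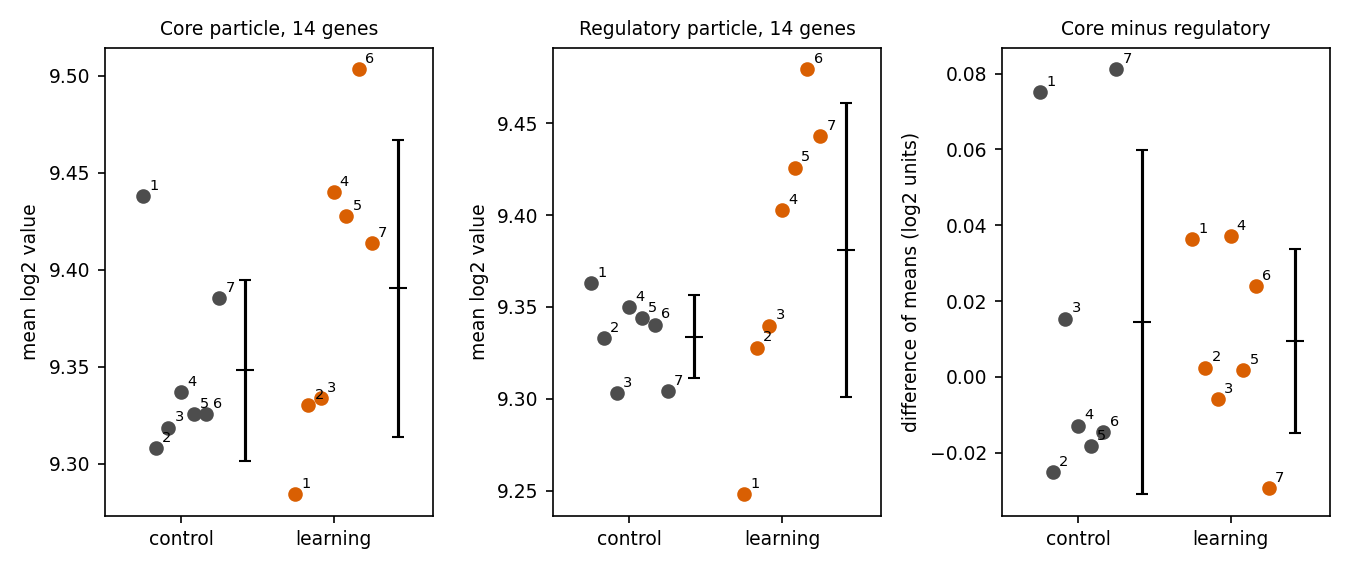
Mean log2 value per rat of 14 core genes (left) and 14 regulatory particle genes (middle) and the core minus the regulatory mean (right), with replicate numbers beside the points and the mean and SD of each group of 7. Learning replicates 4 to 7 lie above all control rats in the middle panel and replicate 1 lies below them, and the groups overlap in all 3 panels.

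Subunit genes varied together to a limited degree. After each group's mean was removed, the correlation between a pair of regulatory genes over the 14 arrays had a median of 0.18 (91 pairs), between a core and a regulatory gene 0.15 (196 pairs) and between core genes -0.01 (91 pairs). The median over all pairs of tested genes was 0.0025. These pairs share the same arrays and their normalization, and the values are a description. Psmd6, Psmb5 and Psmb4 had the highest median correlation with the other 27 subunit genes, at 0.37, 0.35 and 0.35. Psmb2 had one of -0.08, and Psma7 the lowest of the 28 at -0.28. A first component of the scaled deviations held 30.1% of their variance, with 21 of 28 genes on the more common sign of loading. No other set of genes was treated in this way, so these 2 values have no background and are a description only.

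**Figure D4:**
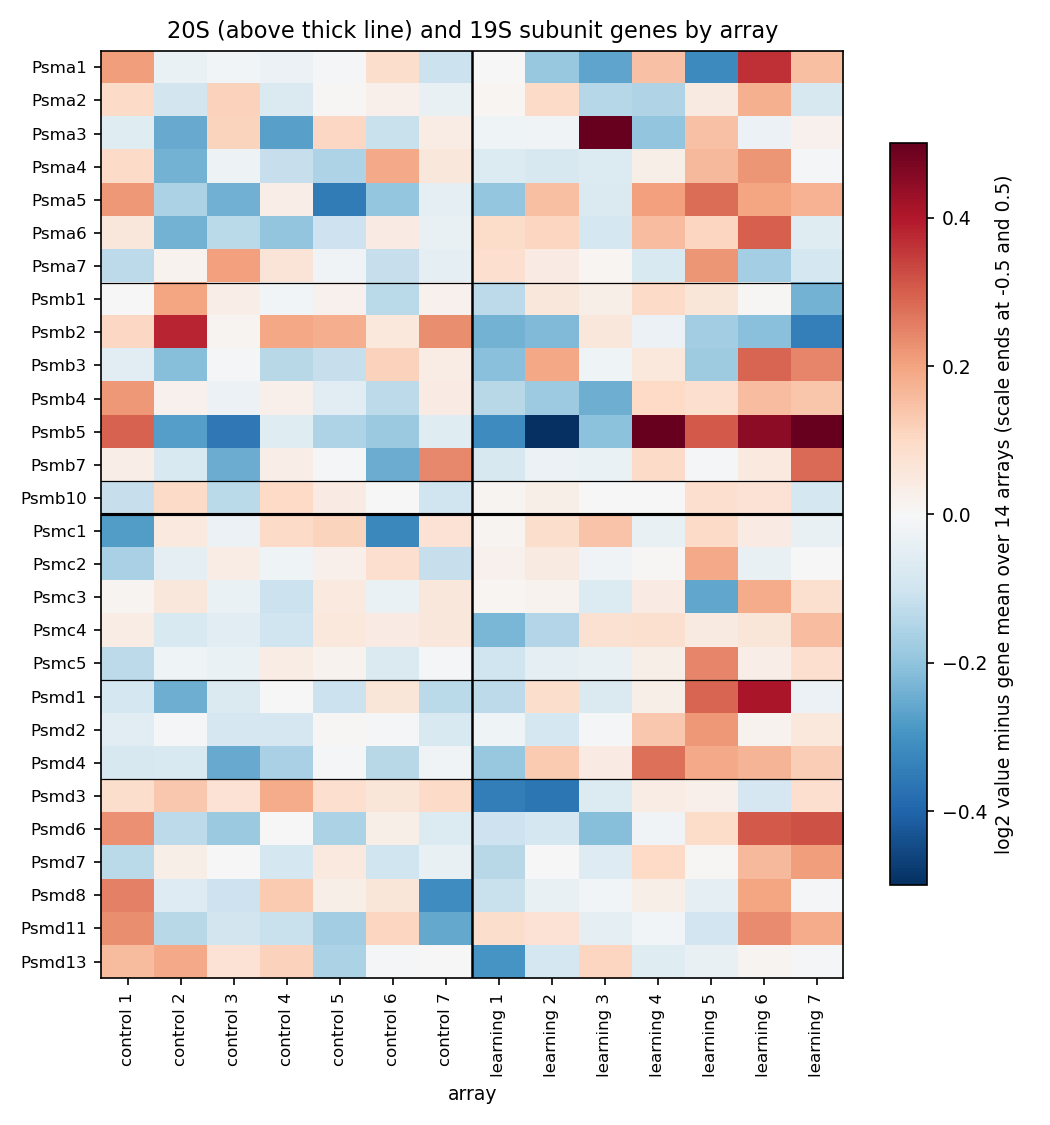
Log2 value minus the gene's mean over 14 arrays for 28 subunit genes of the 20S core (above the thick line) and the 19S particle, with control rats to the left and learning rats to the right of the vertical line. Psmb2 is below its mean in all learning rats but replicate 3, and Psmb5 shows the widest range, from low in learning replicates 1 to 3 to high in replicates 4 to 7.

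The remaining members bind the proteasome from outside. Psme1 and Psme2 encode the cap induced by interferon, and they differed by -0.09 ± 0.09 (SE) and 0.04 ± 0.09 (SE). Both tested probe sets that list Psme3 also list Aoc3 and G6pc1 and fall outside the rule, and they differed by 0.11 and -0.0086. Psmd5, Psmd9 and Psmd10 encode chaperones that assemble the base, and all 3 were lower, by differences of -0.05, -0.03 and -0.10, with 0 at an unadjusted p below 0.05. Psmd9 was close to the filter level, at 4.39 in control and 4.36 in learning rats. Psmf1, which encodes the inhibitor PI31, differed by 0.08 ± 0.11 (SE), and Psme3ip1 by -0.10 ± 0.15 (SE). Of the 39 genes, 13 have pseudogenes or close copies named after them in the current rat gene table, 38 in all. Psmb3 has 10 and Psma6 has 5. Only symbols that add -ps or l and a number were counted, so forms such as Psma3l were not. Probe sets of these 13 genes may read such copies too. No symbol of the counted form is named after Psmb2, Psmd3, Psmd4 or Psme4.

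Other subunits and assembly factors of the proteasome, from a list set by function, were 10 in number. In learning rats 3 of these were higher and 7 lower, and the median was -0.03. None had an unadjusted p below 0.05. Psmg3 and Psmg1, which encode chaperones of alpha ring assembly, had the smallest p of this list, at -0.59 ± 0.38 (SE; adjusted p = 0.521 in limma) for Psmg3 and -0.16 ± 0.11 (SE; adjusted p = 0.531) for Psmg1. Of 9 regulators of proteasome genes, 5 were higher and 4 lower, and 1, Stat3, had an unadjusted p below 0.05 (11.1%, against 12.6% of all genes). Stat3 differed by -0.33 ± 0.11 (SE), although its other probe set differed by -0.03, and Foxo3 by 0.15 ± 0.08 (SE). Nfe2l1 differed by -0.04 ± 0.09 (SE) and Nfe2l2 by -0.08 ± 0.08 (SE).

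Steps upstream of the proteasome showed differences of both signs. Of the activating enzymes of ubiquitin and ubiquitin-like proteins, 5 genes were tested, with 3 higher and 2 lower and 0 at an unadjusted p below 0.05. Uba1, the one among them that activates ubiquitin, differed by 0.01 ± 0.04 (SE). Uba3 and Nae1, partners in the activation of Nedd8, differed by -0.09 and 0.12, and Uba2 and Sae1, which activate SUMO, by -0.09 and 0.02. Of 24 ubiquitin-conjugating enzymes, 3 were higher and 3 lower at an unadjusted p below 0.05 (25% in all, against 12.6% of all genes). Ube2b differed by -0.26 ± 0.08 (SE), with -0.10 on its other probe set, and Ube2l3 by 0.15 ± 0.05 (SE), with 0.04 on its other. Of 42 ligases and partners, 5 were higher and 3 lower at that level (19% in all), with Cul5, a cullin scaffold, at 0.48 ± 0.13 (SE) and Syvn1, a ligase of the endoplasmic reticulum, at -0.34 ± 0.09 (SE).

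Of 32 deubiquitinases, 3 were higher and 2 lower at an unadjusted p below 0.05 (15.6% in all, against 12.6% of all genes), with Usp4 at 0.21 and Usp7 at -0.29. Of 16 shuttle factors and VCP partners, 2 were higher and 0 lower at that level (12.5%), Faf1 at 0.24 and Ubxn4 at 0.14. Of 9 genes of MHC class I presentation, which uses peptides from the proteasome, 1 was higher at that level (11.1%). These shares were near the background. The MHC gene was Canx, which encodes the chaperone calnexin, at 0.32, with 0.04 and 0.02 on its other probe sets. RT1-S3 came next at 0.38 and -0.03 on another probe set. No gene of these lists passed adjustment, and their lowest adjusted p was 0.168 in limma.

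**Figure D5:**
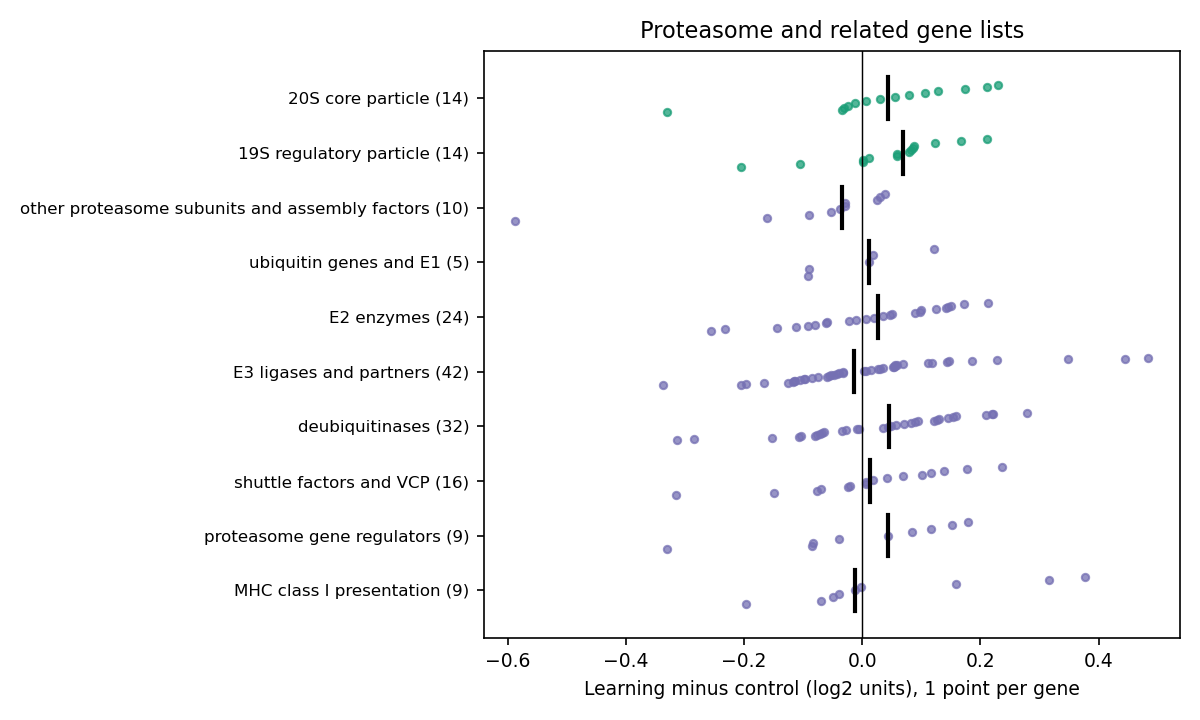
Learning minus control in log2 units for each tested gene of the 20S core, the 19S particle and 8 related lists, 1 point per gene, with the number of genes in brackets and a bar at each median. Medians lie between -0.03 and 0.07, and all lists hold genes on both sides of 0.

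Cell composition and RNA per cell cannot be told apart in this bulk tissue, so marker genes are given beside these results. Prox1, the transcription factor of dentate granule cells, was at 10.3 ± 0.25 among control and 10.3 ± 0.17 among learning rats (SD, n = 7 each), as fits the labelled tissue. The mean of the 4 granule cell markers tested was 9.53 ± 0.09 in control (range 9.37 to 9.66) and 9.70 ± 0.08 in learning rats (range 9.56 to 9.82), with 6 learning rats above every control rat. This rested on Dsp at 0.44 and Stxbp6 at 0.22, while Prox1 differed by 0.08 and Calb1 by -0.03. With this mean as a covariate, 2 proteasome genes had an unadjusted p below 0.05, Psmb2 at -0.32 and Psmd3 at -0.27, and so did 3.45% of all genes. Psme4 was then at 0.23, Psmd4 at 0.14 and Psma5 at 0.16, each smaller than without the covariate. The mean difference of the core particle was then 0.02, against 0.04 without the covariate. That of the regulatory particle was 0.03, against 0.05. Psma6 stayed at 0.18, against 0.17 without the covariate, yet its unadjusted p in limma rose from 0.0203 to 0.109. This marker mean differs between the groups, so with it as a covariate the group difference is also estimated less precisely.

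Markers of CA1, the neighbouring hippocampal field, averaged 6.69 ± 0.35 in control (range 6.28 to 7.40) and 6.97 ± 0.15 in learning rats (range 6.70 to 7.12) over 8 tested genes. Of these, 6 were higher and 2 lower in learning rats. Wfs1 at 0.95 and Gpr161 at 0.53 differed most, while Lmo3 differed by 0.0025, Itpka by -0.05 and Dcn by -0.17. With the CA1 marker mean as a covariate, Psme4 differed by 0.55 and Psmb2 by -0.32. Without Dcn, which is also a meningeal gene, they differed by 0.63 and -0.32. In that fit Psmd4 was at 0.17 and Psma5 at 0.22. Their unadjusted p in limma rose above 0.05, to 0.0600 for Psmd4 and 0.0758 for Psma5. Leptomeningeal markers averaged 6.68 ± 1.0 in control (range 5.59 to 7.92) and 6.43 ± 1.04 in learning rats (range 5.42 to 8.06) over 11 tested genes, and with them as a covariate Psmb2 was at -0.32 and Psme4 at 0.41. Astrocyte markers averaged 10.62 ± 0.11 in control (range 10.49 to 10.77) and 10.55 ± 0.06 in learning rats (range 10.43 to 10.60) over 10 tested genes, of which 7 were lower and 3 higher. After group means were removed, most of the 28 subunit genes correlated negatively with this mean over the 14 arrays, and the others positively. The lowest values were -0.77 for Psma4 and -0.72 for Psma6, and the highest 0.61 for Psma7 and 0.52 for Psmc1. Correlations of similar size occurred with other marker means, such as 0.73 for Psmc1 and -0.66 for Psmd11 with choroid plexus markers. Psmd8 reached 0.64 with oligodendrocyte markers, and Psma3 reached 0.61 with granule cell markers. These correlations rest on shared arrays, and no background over all genes was computed for them. The part of astrocytes in the proteasome values was not tested. Of 3 choroid plexus markers tested, Ttr was at 7.47 ± 1.07 among control and 5.68 ± 0.14 among learning rats (SD, n = 7 each), while Enpp2 and Prlr differed by -0.04 and -0.02. The median of the list was -0.04, and its part in the proteasome values was not tested.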

How the data were processed

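Total RNA of each rat's dentate gyrus was labelled with biotin and hybridised to 1 array, per the labels' protocols. The authors deposited log2 values. The submitters' processing notes name GCRMA, with the version not given in the sources used here. The scale was read from the values, which run from -0.56 to 15.0. GCRMA compresses differences near background.

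Of 15866 probe sets other than controls, the 9387 whose mean reached 4 were tested. They hold 6697 genes with 1 symbol, and the brightest probe set stood for each gene. The groups were compared with limma 3.58.1 (lmFit, eBayes) in R 4.3.3, with Benjamini-Hochberg adjustment over all 9387. The same fit was run on data simulated with independent noise for each probe set and the same SD in both groups. That run checked the calculation only, since it held no variation shared between genes. The number of arrays limits the precision; the median standard error was 0.08 log2 units. The labels call the arrays biological replicates and give no batch. All member symbols matched the current gene table (GRCr8).

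The members, the gene lists and the tests were chosen with earlier results of these data known. Named in full are the 10 members of smallest p, Psmb5, Psmb7 to Psmb10, Psmc5 and members with probe sets of opposite sign; Psmd14 and Psmb6 have no single-symbol probe set in the table used here. From each related list, the 2 genes of smallest p are named; Nfe2l1 and Nfe2l2 were added. Alternatives were other filters, normalizations, priors, weights, covariates, the replicate block and each array left out. Figures were drawn with matplotlib 3.10.9.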

Additional observations from a re-analysis of the deposited data

Results flagged for a closer look

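Of 44 groups of 7 arrays checked, in which chance flags about 1 in 20, 2 held an array far from the others. Psmb8 was at 2.05 in learning replicate 4, the highest of its group, with the next at 1.94. Psmb9 was at 3.47 in control replicate 3, the highest of its group, with the next at 3.28. Both genes encode subunits of the immunoproteasome and lay below the filter level in all 14 arrays.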

How the results depend on the processing

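Over 28 alternatives, the mean difference lay between 0.02 and 0.06 for the core particle and between 0.03 and 0.07 for the regulatory particle, and core minus regulatory lay between -0.01 and 0.0062. The count of probe sets past the adjusted threshold was 0, and 0 to 1 with an array left out: it became 1 without control replicate 6, learning replicate 1 or learning replicate 4. The count of proteasome genes at an unadjusted p below 0.05 was 5 to 7 with an array left out (9.59% to 14.4% of all genes), 8 with array weights (14.7%), 4 with the CA1 marker mean without Dcn as covariate (10.1%) and 2 with the granule cell marker mean as covariate (3.45%). Both covariates were chosen after seeing the data. Psmb7 reversed to -0.00075 with the granule cell covariate. The other 389 of 390 values of the 14 named members kept their direction, though sizes moved by over 1.5 times for some, such as Psmd13, Psmc5 and Psmd1. Psme4, the largest difference at 0.39, moved as much. It was 0.23 with the granule cell covariate and 0.63 with the CA1 covariate without Dcn. None of the 390 values passed an adjusted p of 0.05, and the lowest was 0.0835 in limma, for Psmb2 without control replicate 6. A filter at a mean of 6 leaves Psme4 and Psmb10 untested.

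The labels do not say that replicate numbers pair the rats. Same-numbered arrays correlated between -0.28 and 0.26 after group means were removed, above 0.1 in 4 of 7 pairs and not in all, so the numbers were not used as pairs. Of 14 arrays, each with 7 arrays of the other group to choose from, 6 correlated best with their own number, a hint from the data only. With the replicate block, 6 proteasome genes had an unadjusted p below 0.05, against 13.6% of all genes. Psmd1 (limma's unadjusted p = 0.0439) took the place of Psma5 (0.0778), and Psmb2 stayed at -0.33 (adjusted p = 0.162 in limma).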
